A study of Drosophila melanogaster with 4 samples.

Results

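Drosophila S2 cells are an embryo-derived line widely used as a model of haemocytes, the blood cells of the fly. The transcriptome described here is that of the DMSO library, the only library of untreated cells among 4. Its members are all 14869 gene IDs of the count table, of 14869 in the series, with the 5 counter entries that name no gene left out. The cells were growing exponentially in Schneider medium at 25 °C and received DMSO, the solvent, with a time label of 0 min. The other libraries came from S2 cells given 40 µM radicicol, an inhibitor of the chaperone Hsp90, in DMSO for 15, 30 or 60 min, and they served to check whether a level seen in DMSO was stable. RNA was isolated with TRIzol and poly(A) RNA was made into TruSeq libraries. S2 is 1 cell line and each condition had 1 library, so no value below has a replicate error, no test between conditions was made, and every interval covers counting error only.

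Macrophage-like haemocytes, or plasmatocytes, engulf dying cells and microbes through scavenger and Nimrod receptors and secrete the collagen IV, peroxidasin and SPARC of basement membranes. Their identity depends on the GATA factor srp and its cofactor ush, while crystal cells and lamellocytes, the other haemocyte classes, are marked by lz and prophenoloxidases and by atilla. Growing cells of any type devote much of their mRNA to ribosomal proteins. Basal chaperones fold new proteins at all times, whereas the heat shock genes are held nearly silent until the heat shock factor Hsf, which Hsp90 restrains, is released.

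The DMSO library held 19153476 gene counts, against 28614983, 30859475 and 31028233 in the 15, 30 and 60 min radicicol libraries. Reads that did not align made up 44.1% of the DMSO reads and 17.8% to 21.5% of those of the radicicol libraries. Small structural and ribosomal RNAs were also higher in DMSO. The 107 IDs named as nuclear ribosomal RNA or its pseudogenes together held 7784 counts in DMSO and 873, 417 and 304 counts in the radicicol libraries in order of time. Any such RNA among the IDs without a symbol is not in these totals. The part of these differences in the results below was not tested. Levels are given as CPM for 1 gene across libraries, which are counts scaled to the total gene counts in DMSO and to TMM library sizes relative to DMSO in the radicicol libraries, and as RPKM, CPM per kilobase of exon, between genes. Exon lengths were found for 13524 IDs, which held 87.8% of the counts. A further 1337 IDs, with 12.1% of the counts, had no symbol in the name tables used and are not named here beyond their IDs.

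Somewhat more genes were detected than not, and a small set of them filled the library. At least 10 counts were found for 8121 gene IDs (54.6%) and at least 1 count for 10705 (72.0%). Thinned to the DMSO depth, the radicicol libraries would show 8051, 8066 and 8212 IDs with at least 10 counts in order of time, so the number detected was close in all 4. The 146 most abundant genes held 50% of the DMSO counts. The 15, 30 and 60 min libraries needed 225, 218 and 327 genes to reach 50%, so the counts were most concentrated in DMSO. Of the 13524 genes with an exon length, 3701 had no count, 3049 lay above 0 but below 1 RPKM, and 98 reached 1000 RPKM. Those 98 genes held 38.5% of all counts, and the 3049 genes of the low class held 0.167%.

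Stability was judged by a rule of size. Genes averaging 20 counts or more across the libraries numbered 7883 and are called measured. A measured gene was called higher or lower in a radicicol library if its CPM differed from DMSO by at least 2-fold and the exact 95% counting interval of the fold lay on that side. All 3 comparisons share the DMSO library. The rule called 2.63% of measured genes at 15 min (1.4% higher and 1.23% lower), 4.68% at 30 min (3.36% higher and 1.32% lower) and 32.3% at 60 min (19.7% higher and 12.6% lower). At 60 min the fold followed exon length. When measured genes were ordered by exon length into 5 groups, the group with the shortest exons (median 863 bases) had a median log2 fold of -0.87, and the group with the longest (median 5432 bases) had one of 1.15. At 15 min the same groups stood at -0.33 and 0.35. The 15 and 30 min libraries were therefore the closer check of a DMSO level, with Spearman correlations across the 7883 genes of 0.975 and 0.963 against 0.867 at 60 min, a description across genes, which are not replicates.

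**Figure D1:**
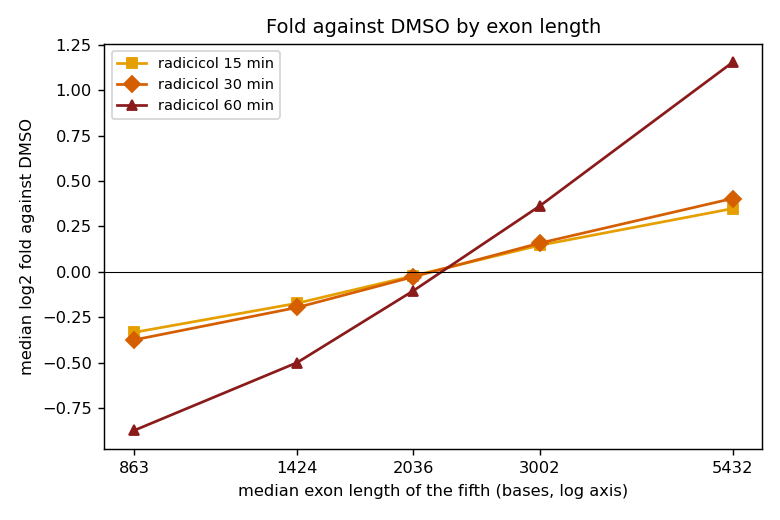
Median log2 fold of each radicicol library against DMSO (vertical axis) for the measured genes in 5 groups ordered by exon length (horizontal axis, median length in bases, log axis). Each point is the median of 1 group, and the 60 min line runs from -0.87 to 1.15 while the 15 min line runs from -0.33 to 0.35.

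Ribosomal protein genes were the main content of the untreated transcriptome. The 82 cytosolic ribosomal protein genes with a symbol held 29.1% of the DMSO counts and 62 of the 100 most abundant gene IDs. RpS10b had no ID under its symbol and is not among them. Any ribosomal protein genes among the IDs without a symbol, which held 12.1% of the counts, are left out too. The share and the 62 are therefore lower bounds, and the size of the shortfall was not determined. Of the 30 highest genes by RPKM, 29 were ribosomal proteins and the other was mt:lrRNA, the large ribosomal RNA of mitochondria. IDs without a symbol, 16 of the 100 and 5 of the 30 most abundant by counts, had no exon length and could not be ranked by RPKM. The median of the 82 was 3804 RPKM, with RpL41 at 14092 and RpLP2 at 10964 RPKM, and 71 of the 82 reached 1000 RPKM. The median of all genes with a length was 1.02 RPKM. The 9 ribosomal protein genes under 100 RPKM were members of duplicate pairs or -like genes. RpL37-2, RpS28-like, RpS28a and RpL10Aa had no count, RpL22-like, RpS10a and RpL7-like lay below 1 RPKM, and RpS19b and RpS5b lay at 2.35 and 3.18 RPKM. RpL7-like shares 98.8% of its exon bases with another gene, so its counts cannot be read alone.

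For most pairs of ribosomal protein copies 1 member carried nearly all of the counts. RpS5a had 73402 counts beside 58 for RpS5b, RpS19a had 95879 beside 30 for RpS19b, RpL22 had 28527 beside 3 for RpL22-like, and RpL10Ab had 70974 beside 0 for RpL10Aa. Other pairs were both high on the RPKM scale: RpS14a and RpS14b at 3260 and 2432, RpS15Aa and RpS15Ab at 8195 and 3912, and RpL34b and RpL34a at 2403 and 1416. Copies as alike as RpS14a and RpS14b share reads, and how the counter divided those between them is not stated in the labels.

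The ribosomal protein share was not the same in every library. It was 29.1% in DMSO and 22.98%, 22.1% and 14.4% in the 15, 30 and 60 min libraries. RpL5, with the most counts of the family, stood at 15286, 13223, 12938 and 10287 CPM in DMSO and at 15, 30 and 60 min. DMSO was the highest of the 4 libraries for this gene. None of the 76 measured members was called at 15 or 30 min, where the medians of the log2 fold were -0.53 and -0.52, and 52 were called lower at 60 min, where 12.6% of measured genes were. Ribosomal protein transcripts are short, and with the relation to exon length removed the 60 min median log2 fold was -0.34 rather than -1.13.

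**Figure D2:**
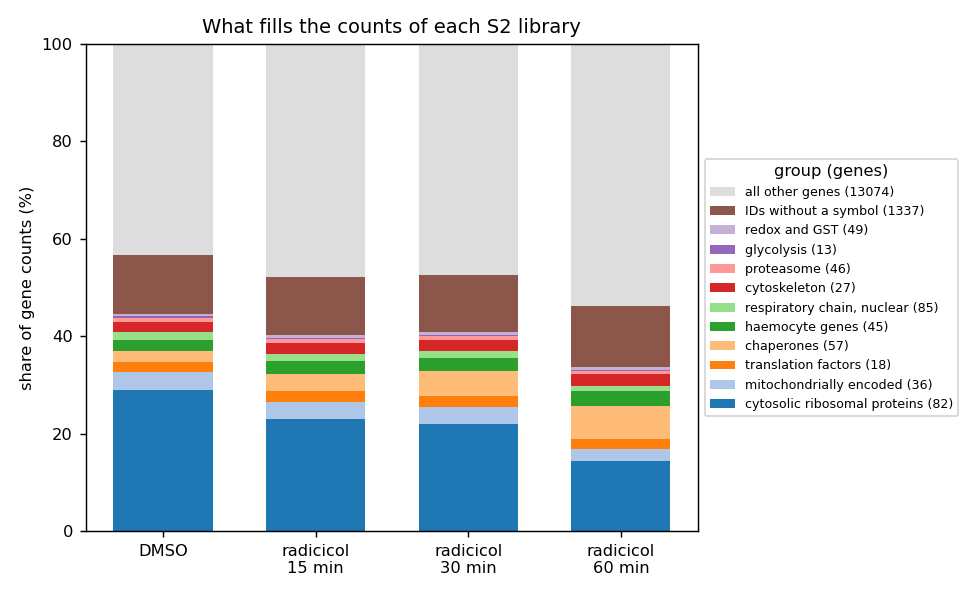
Share of gene counts in percent (vertical axis) by group of genes in each of the 4 libraries, with the number of genes of each group in the key. Cytosolic ribosomal proteins at the base fill 29.1% of DMSO and 14.4% of the 60 min library, while chaperones run from 2.20% to 6.79%.

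Among the groups of named genes set side by side here, mitochondrially encoded RNA came next. The 36 mitochondrial genes held 3.54% of the counts, most of it mt:lrRNA, the most abundant gene of the library with 531786 counts (27765 CPM in DMSO and 24441, 25198 and 16566 CPM at 15, 30 and 60 min). The cytochrome oxidase subunits mt:CoIII, mt:CoII and mt:CoI stood at 2422, 1947 and 1228 RPKM. mt:srRNA, the small ribosomal RNA, reached only 20.7 RPKM. The 18 translation factors with an ID held 2.10%, and eEF2, the factor that moves the ribosome along the mRNA, stood highest among them at 2848 RPKM. eEF1alpha1, eEF5, eIF2alpha, eIF2gamma and pAbp were not analysed here, so the share of translation factors is a lower bound. Its rank below the mitochondrial genes is therefore uncertain. IDs without a symbol held 12.1% of the counts, among them FBgn0000556 with 281436 counts (1.47%). What FBgn0000556 encodes was not determined. eEF2 was even across the libraries, with 8704, 8590, 8707 and 9296 CPM in the 4 libraries.

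Outside these families the highest RPKM values belonged to genes of the cytoskeleton, secretion and metabolism. SPARC, a collagen-binding matrix protein, stood at 3082, alphaTub84B at 2874, awd, a nucleoside diphosphate kinase, at 2755, and tsr, the fly cofilin that severs actin filaments, at 2671. The imaginal disc growth factor Idgf6 stood at 1980, Act5C at 1835, the ribosome scaffold Rack1 at 1700, the cyclophilin Cyp1 at 1514, the ER chaperone Calr at 1464 and the lysosomal protease CtsL1 at 1350 RPKM. Of the 100 most abundant gene IDs, only Hsp83 was called higher and none lower at 15 min, and the same counts, 1 and 0, held at 30 min. At 60 min 54 of the 100 were called lower and 2 higher, beside 12.6% and 19.7% of all measured genes, and 44 were never called.

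Core machinery was expressed almost without gaps, apart from duplicate copies. Of 46 proteasome genes, the 31 without a copy suffix in the name all reached 10 RPKM, with a median of 193 RPKM. Of the 15 with an R or T suffix, many of which are known in flies as testis-expressed copies, 12 lay below 1 RPKM and 8 had no count. The exceptions included Prosalpha1R at 440 RPKM and Rpt3R at 12.7 RPKM. The nuclear respiratory chain showed the same split: 60 of 62 subunit genes reached 10 RPKM, while the 23 copies with an L suffix reached at most 6.46 RPKM and 18 of them lay below 1. Of the 2 exceptions among the subunits, UQCR-14 shares all of its exon bases with another gene and ND-B8 had 1 count. The 70 mitochondrial ribosomal proteins had a median of 74.1 RPKM and a highest value of 197 RPKM (mRpL12), far below the cytosolic family. mRpL53, at 0, also overlaps another gene over its whole length, and of the 391 protein-coding genes with 90% or more of their exon bases overlapped, 231 (59.1%) had no count, against 31.2% of those with no overlap. A 0 in such a gene is not a measure of its level.

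Growth and housekeeping genes covered a wide range of levels. All 25 cell cycle genes were above 1 RPKM, from 2.97 to 389 for PCNA, the sliding clamp of replication. All 30 aminoacyl-tRNA synthetases were too, with a median of 42.2 RPKM. In glycolysis 11 of 13 genes were, led by Gapdh2 at 347 RPKM, and the paralogs Hex-A and Pglym78 (21.4 and 134 RPKM) were expressed where Hex-C and Pglym87 had 0 and 1 count. Of 13 genes often used as references, RpL32 stood at 6172, Act5C at 1835, Gapdh1 at 239 and Tbp at 35.7 RPKM. RpL32 went from 4913 CPM in DMSO to 3154, 3103 and 1950 CPM. At 60 min 4 of the 13 were called lower (RpL32, RpL13A, RpS20 and Tbp) and 1 higher (Su(Tpl)). Of all measured genes 12.6% were called lower and 19.7% higher there. The 60 min median log2 fold of the 13 was -0.51, and -0.17 with the relation to exon length removed.

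Many receptors and secreted proteins of haemocytes were expressed in the line. Of 45 haemocyte genes, 38 had at least 10 counts and 34 reached 1 RPKM, and together they held 2.39% of the counts. Of all gene IDs 54.6% had at least 10 counts, and 49.9% of those with a length lay below 1 RPKM. All 12 core markers were detected. The lists were chosen with earlier results of these data known, so such counts are no test of identity. The mucin-like surface protein He stood at 615, the peroxidasin Pxn at 537, the scavenger receptor Sr-CI at 318, the collagen IV chains Col4a1 and vkg at 304 and 175, and the phagocytic receptor eater at 100 RPKM. The growth factor receptor Pvr stood at 49.4, the CD36-like receptor crq at 31.9, the GATA factor srp at 22.8, the Nimrod receptor NimC1 at 22.3, the srp cofactor ush at 10.4 and the clotting protein Hml at 4.96 RPKM.

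No core marker was called at 15 or 30 min, but several stood lowest in DMSO. He was nearly flat, at 414, 406, 423 and 401 CPM in DMSO and at 15, 30 and 60 min. NimC1 was also flat, at 73.3, 68.98, 74.4 and 72.9 CPM. Pxn stood at 3200, 3774, 3719 and 4996 CPM and Col4a1 at 1872, 2476, 2455 and 3532 CPM, so DMSO was the lowest library for both. The largest early difference of the core list was that of ush, at 69.9, 108, 113 and 171 CPM. Hml, with the longest exons of the core list (11756 bases), stood at 58.3, 72.0, 70.0 and 128 CPM. None of the 35 measured haemocyte genes was called at 15 or 30 min, where the background was 2.63% and 4.68%, and at 60 min 6 were called higher (vkg, LanA, Tig, zfh1, ush and Hml) and 1 lower (NimB4), where it was 19.7% and 12.6%. With a list of this size such counts do not set the haemocyte genes apart from the rest. The core list's median log2 fold was 0.27 at 15 min and 0.19 at 30 min. It was 0.62 at 60 min, and -0.38 with the relation to exon length removed.

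**Figure D3:**
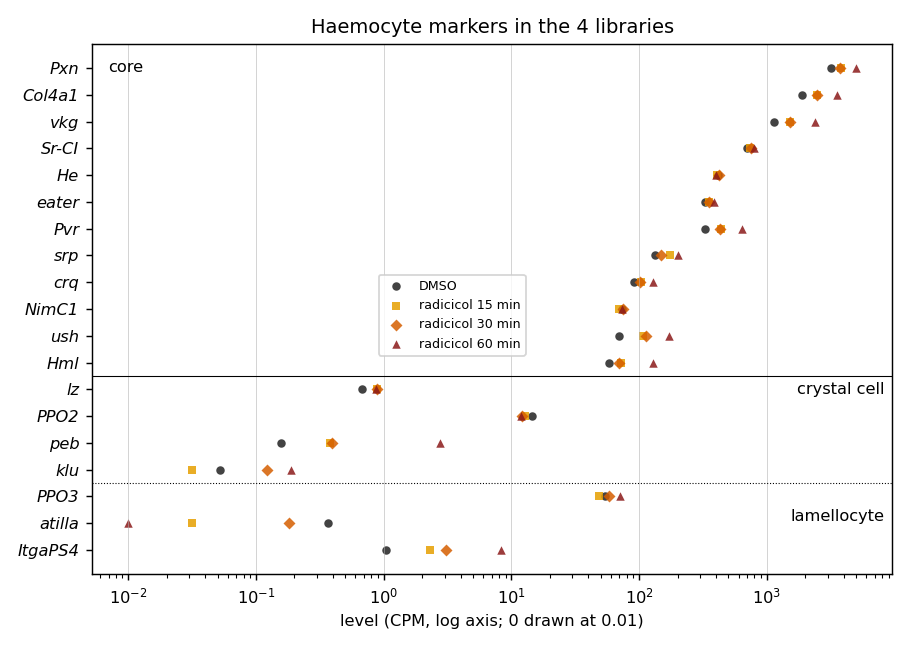
Level in CPM (horizontal log axis, with 0 drawn at 0.01) of the 12 core haemocyte markers, 4 crystal cell markers and 3 lamellocyte markers (rows) in the 4 libraries (symbols). The core markers lie between 58.3 and 3200 CPM in DMSO, and lz, peb, klu and atilla lie below 1 CPM.

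The secreted products outweighed the receptors. The 18 genes listed as secreted or matrix proteins held 2.08% of the counts, the 18 listed as surface receptors 0.277% and the 9 transcription factors 0.0352%. The receptor list includes the clotting protein Hml and the genes NimB2, NimB4 and NimB5, so it is not of receptors alone. SPARC, Idgf6, Idgf2 (782 RPKM), the glutactin Glt (635 RPKM), Pxn and Idgf1 (511 RPKM) were the highest of the secreted or matrix list by RPKM. SPARC stood at 3702, 2597, 2621 and 1904 CPM in the 4 libraries, highest in DMSO, and its log2 fold of -0.96 at 60 min fell just short of the rule. The Nimrod genes NimB5, NimB4 and NimB2 were at 171, 113 and 46.5 RPKM and the engulfment receptor drpr at 30.4 RPKM. The list had gaps. Ndg (nidogen) had 0 counts, Idgf5 and NimA 1 each, Sr-CII 2, NimC4 10, Idgf4 14 and Antp 16, and gcm, the regulator of early haemocytes and glia, had 0. A count of 0 allows up to 3 counts, or 0.157 CPM at this depth.

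The other haemocyte classes were represented in part. Of the crystal cell markers, the Runx factor lz had 13 counts in DMSO and 28, 29 and 28 in the radicicol libraries, PPO2 stood at 6.41 RPKM, and peb and klu had 3 and 1 counts. Of the lamellocyte markers, PPO3 stood at 24.5 RPKM with 54.5, 48.1, 58.0 and 70.5 CPM in the 4 libraries, while atilla and ItgaPS4 stood at 0.44 and 0.31 RPKM. The remaining lamellocyte genes cher, mys and cora (38.1, 31.7 and 27.7 RPKM) are cytoskeletal, integrin and junction genes used by many cell types. cora stood at 167, 269, 327 and 979 CPM and cher at 359, 530, 585 and 1655 CPM in the 4 libraries, lowest in DMSO. Of the 5 measured lamellocyte genes 1 was called higher at 15 and 30 min and 4 at 60 min. Over all measured genes 1.4%, 3.36% and 19.7% were called higher at 15, 30 and 60 min. In the group with the longest exons the 60 min share was 57.8%. The lamellocyte list's share of counts was 0.0724% in DMSO and 0.338% at 60 min. Among prohaemocyte genes Tep4 reached 116, Ance 33.1 and dome 10.6 RPKM, and hh had 2 counts. A second GATA factor, pnr, was higher than srp on the RPKM scale, at 41.5 against 22.8, and stood at 181, 230, 160 and 167 CPM in the 4 libraries.

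Most immune recognition and signalling genes were expressed, and most antimicrobial peptide genes were not. Of 16 recognition genes, 12 reached 1 RPKM, led by PGRP-SA, a sensor of bacterial peptidoglycan, at 171 RPKM. Of 15 Toll and Imd pathway genes, 14 did, with the kinase subunit key at 123, the Toll ligand spz at 77.1 and the NF-kB factor Rel at 42.2 RPKM. The exception was pirk, an inhibitor of the Imd pathway, with 8 counts. Of 13 antimicrobial peptide genes, the cecropins CecC, CecA1, CecA2 and CecB stood at 26.6, 22.02, 13.8 and 10.2 RPKM and Dro at 1.38, while AttC, Def, DptA and DptB had no count. None of the 33 measured immune genes was called at 15 or 30 min (background 2.63% and 4.68%), and at 60 min 6 were called higher and 3 lower (background 19.7% and 12.6%).

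Of 44 surface and nuclear receptor genes, 23 reached 1 RPKM. The share below it, 47.7%, was close to the 49.9% of all genes with a length. InR, btl, Tl, 18w and scb were not analysed here. Of 7 growth factor receptors, Pvr stood at 49.4 and Ror at 1.54 RPKM, and Egfr (15 counts), tor, Alk, htl and sev lay below 1 RPKM. The Notch receptor N and the BMP and activin receptors sax, put and babo stood between 12.1 and 20.5 RPKM, while the Wnt receptors fz and fz2 had 8 and 6 counts. Among nuclear receptors ERR, Hr78 and usp led at 18.3, 15.7 and 15.2 RPKM, and EcR, the ecdysone receptor, stood at 2.11 RPKM. Of the 32 measured receptor genes, 1, 6 and 17 were called higher at 15, 30 and 60 min, and 0 lower. The background was 1.4%, 3.36% and 19.7% higher. Their median log2 fold at 60 min was 1.15, and 0.22 with the relation to exon length removed.

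Basal chaperones were well expressed in every compartment. The 42 basal chaperone genes held 2.18% of the counts (95% counting interval 2.17 to 2.18%), had a median of 184 RPKM, and 40 of them lay above 1 RPKM. Those of the endoplasmic reticulum held the most, 0.800%, with the calcium-binding lectin chaperone Calr at 1464, the disulfide isomerase ERp60 at 1098 and the BiP homologue Hsc70-3 at 329 RPKM. Hsp90 and its co-chaperones held 0.474%, and most of that was Hsp83, the cytosolic Hsp90 gene, at 978 RPKM, with the co-chaperone p23 at 515 RPKM.

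The chaperonin and the ribosome-bound chaperones were evenly expressed. The 7 measured CCT subunits, which fold actin and tubulin as 1 ring complex, lay between 192 RPKM (CCT1) and 410 RPKM (CCT5). The nascent chain genes Nacalpha and bic stood at 1148 and 893 RPKM, the mitochondrial Hsp60A and Hsc70-5 at 202 and 131 RPKM, and the prefoldin genes between 106 and 369 RPKM. The Hsp70 cognates Hsc70-1 and Hsc70-2 were nearly silent, with 11 and 1 counts. Hsc70-4 was not analysed here, so the cytosolic Hsp70 share of 0.0915% leaves it out.

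Most basal chaperone levels were stable. At 15 min 2 of the 42 were called higher (Hsp83 and Hsc70-2), at 30 min 3, and at 60 min 6 higher and 1 lower, and the background was 1.4%, 3.36% and 19.7% higher. Calr stood at 2455, 2118, 2180 and 1989 CPM in the 4 libraries and ERp60 at 1985, 1945, 2022 and 2126 CPM. CCT5 stood at 812, 727, 835 and 857 CPM. The clear exception was Hsp83, the gene of the drug's own target, at 2895 CPM in DMSO and 5816, 9305 and 15047 CPM at 15, 30 and 60 min, lowest in DMSO. Hsc70-3 followed later, at 1182, 1359, 1742 and 3498 CPM.

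The inducible heat shock genes were low in DMSO, and 5 of the 15 lay below 1 RPKM. The 15 genes held 0.0241% of the counts, against 0.863%, 2.02% and 2.75% in the radicicol libraries. The small heat shock genes Hsp26 and Hsp23 were the highest by RPKM, at 38.1 and 33.7, with Hsp27 below 10 RPKM. lncRNA:Hsromega stood at 5.29, the Hsp70 co-chaperone stv at 2.89, Hsp68 at 3.81 and the 6 Hsp70 copies between 0.84 (Hsp70Bb) and 3.53 RPKM (Hsp70Aa). Reads of the Hsp70 copies, which are nearly identical, can be divided between them by the counter, so single copies are uncertain. Hsp22, Hsp67Ba and Hsp67Bc had no count in DMSO. Hsp22 also stood at 0 CPM at 15, 30 and 60 min, where Hsp67Ba reached 3.12 CPM at 60 min. Whether reads of Hsp22 could be counted under its ID was not tested, so its 0 is not a measure of its level. Hsp26 went from 38.5 CPM in DMSO to 361, 1646 and 3460 CPM, and 12 of the 13 measured genes were called higher at 15 min and all 13 at 30 and 60 min. DMSO levels of this group are thus basal values that none of the radicicol libraries can check.

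**Figure D4:**
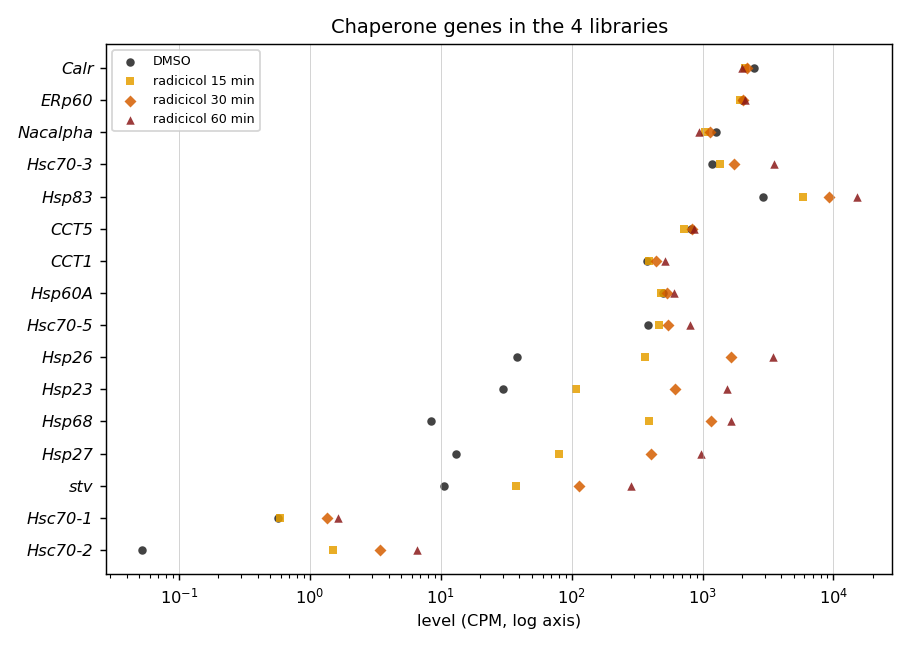
Level in CPM (horizontal log axis) of 16 chaperone genes (rows) in the 4 libraries (symbols). Calr, ERp60 and CCT5 overlap across libraries, Hsp83 runs from 2895 to 15047 CPM, and Hsp26 runs from 38.5 to 3460 CPM.

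Detoxification and cytoskeletal families showed clear choices among paralogs. Of 35 glutathione S-transferases 27 lay above 1 RPKM, led by GstE6 at 583, GstD1 at 360 and GstO3 at 351 RPKM, and the peroxiredoxin Prx2 stood at 1276 RPKM. Of 84 cytochrome P450 genes 35 did, with Cyp4e2 the highest at 60.2 RPKM. Act5C had 69.8% of the counts of the 6 actin genes, alphaTub84B had 89.2% of those of the 4 alpha tubulins, and gammaTub23C had 99.5% of the gamma tubulin counts. The actins known from muscle were not silent, with Act87E at 78.6 and Act57B at 33.3 RPKM, though similar coding sequences make actin counts uncertain. AGO2, the siRNA Argonaute, stood at 61.5 RPKM, aub at 26.2, piwi at 16.5 and AGO3 at 2.76 RPKM.

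Markers of the dosage compensation complex were present, as in a male line. All 7 genes lay above 1 RPKM, with lncRNA:roX2 at 37.0, the male-specific msl-2 at 6.87 and lncRNA:roX1 at 2.77 RPKM. The 4 Y-linked genes with an ID had 1 count in all. Sxl, a sex determination gene, and the Y-linked kl-3, kl-5, PRY, WDY and CCY were not analysed here. X-linked genes were detected more often than autosomal ones. At least 10 counts were found for 64.1% of X genes against 51.8% to 55.4% on the 4 large autosome arms. The median RPKM of detected X genes was lower, 10.3 against 15.6, a ratio of 0.665, with 0.656, 0.678 and 0.734 in the radicicol libraries. Exons of the X genes were longer (median 2256 against 1951 bases), and within bands of exon length the ratio lay between 0.720 and 0.838. On chromosome 4, 84.8% of 79 genes were detected.

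Genes of other tissues were mostly silent. Of 145 markers of 12 other tissues, 119 lay below 1 RPKM and 48 had no count. Among all genes with a length, 49.9% lay below 1 RPKM. No marker of fat body (12 genes), eye (13), eggshell (12) or salivary gland (7) reached 1 RPKM. Of 449 genes in 9 families used by sense organs, cuticle, gut and accessory gland, 427 lay below 1 RPKM and 314 had no count, among them 41 of 59 odorant receptors, 37 of 57 gustatory receptors, 43 of 63 ionotropic receptors and 91 of 124 cuticle protein genes. All 8 homeotic genes and all 16 segmentation genes listed lay below 1 RPKM.

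**Figure D5:**
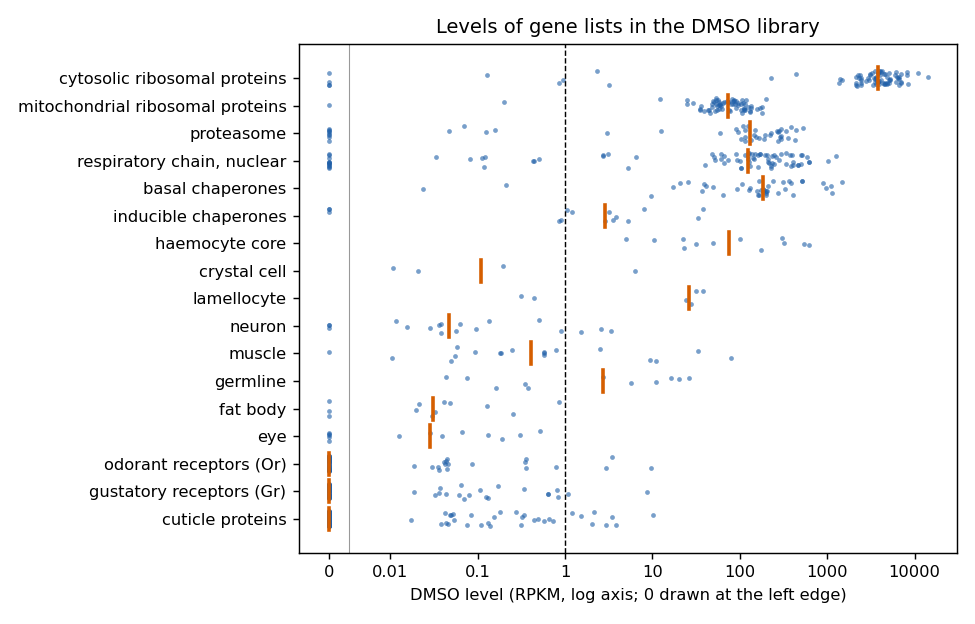
DMSO level in RPKM (horizontal log axis, with 0 drawn at the left edge) of each gene (points) in 17 lists (rows), with the median as a bar and a dashed line at 1 RPKM. Cytosolic ribosomal proteins have a median of 3804 RPKM, basal chaperones of 184 RPKM, and most fat body, eye and receptor family genes lie left of the line.

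The exceptions were called in some library about as often as other measured genes. Of the 26 tissue markers at 1 RPKM or more, 17 were never called, 7 were called higher in a radicicol library and 2 were called lower in all 3. Of all 7883 measured genes, 5317 were never called, 32.6% were called in some library and 1.03% were lower in all 3. The germline genes aub and zpg stood at 26.2 and 20.1 RPKM and were never called, with aub at 79.1, 85.6, 91.4 and 96.7 CPM in the 4 libraries. The germline genes piwi and tud stood at 16.5 and 11.1 RPKM in DMSO and were called higher at 60 min, with tud at 97.7, 159, 166 and 471 CPM. The glial genes nrv2 and moody stood at 23.3 and 6.36 RPKM, and moody was called higher at 30 and 60 min. cora, ct, Mef2 and unc-13 were called higher at 60 min. All 4, as well as tud, have long exons, from 6043 bases in cora to 22598 bases in unc-13. A single nicotinic receptor subunit, nAChRbeta3, stood at 157 RPKM with 240, 194, 204 and 189 CPM in the 4 libraries, while the other 8 of its family lay below 1 RPKM. Of the 449 family genes, 22 reached 1 RPKM, led by Obp99c at 24.8, TwdlY at 10.1, Or43b at 9.65, Gr61a at 8.64 and Ir76a at 8.62 RPKM. Of the 21 measured among the 22, 15 were never called and 6 were called lower, TwdlY in all 3 libraries and the others, with Obp99c and Or43b among them, at 60 min. Or43b shares 40.7% of its exon bases with another gene.

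A few genes were present at low levels in DMSO and nearly absent from the radicicol libraries. The neuronal adhesion gene dpr1 had 178 counts in DMSO and 5, 3 and 5 at 15, 30 and 60 min, and Frq1, a neuronal calcium sensor, had 169 and then 0, 1 and 0. The acetylcholine synthesis gene ChAT had 70 and then 4, 3 and 14 and nAChRalpha6 had 75 and then 8, 10 and 6, though both lay below 1 RPKM in DMSO (0.91 and 0.50). The cuticle gene TwdlY had 201 and then 9, 8 and 4. These 4 neuronal genes were the only ones of the 8 measured neuron markers called lower at 15 min, where 1.23% of measured genes were. Of the 18 neuron markers 15 lay below 1 RPKM in DMSO. The highest was unc-13, with 1449 counts and 3.35 RPKM, while the synaptic vesicle genes Syt1 and nSyb had 0 and 3 counts. elav, the marker of all neurons, had 28 counts in DMSO and was called higher in all 3 radicicol libraries.

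Such losses were few across the transcriptome but were not spread evenly over it. Lower in all 3 radicicol libraries were 81 measured genes (1.03%), with 0.224% of the DMSO counts, of which 30 were protein-coding and 34 had no symbol. Many of the 34 have ID numbers that lie among those of the named ribosomal RNA genes and pseudogenes. FBgn0085807, for example, had 2052 counts in DMSO and 249, 60 and 80 in the radicicol libraries. What these IDs encode was not determined. Of the 30, 21 (70.0%) lay on the X chromosome, which held 17.7% of the 7096 measured coding genes on the main chromosome arms. The X-linked genes, singled out after their values were seen, included the bHLH gene HLH4C with 221 counts in DMSO and 9, 4 and 0 in the radicicol libraries, the embryonic activator zld with 91 and then 7, 5 and 10, and Atf3 with 347 and then 125, 107 and 172. The rule called 1.22% of measured genes higher in all 3 libraries, and of the 68 coding genes among them 8 (11.8%) lay on the X.

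RNAs without a poly(A) tail were another group that was higher in DMSO. The 250 small nuclear, nucleolar and related RNAs held 0.0441% of the counts in DMSO and 0.0103%, 0.00777% and 0.00656% in the radicicol libraries. The signal recognition particle RNA 7SLRNA:CR32864 had 3115 counts and then 612, 405 and 314, and its near-identical copy 7SLRNA:CR42652 had 3130 and then 653, 395 and 257, so that these 2 genes held most of the group's DMSO counts. Of the 16 measured members 10 were called lower at 15 min, where 1.23% of all measured genes were. The pseudogene 18SrRNA-Psi:CR41602 had 4772 counts and then 465, 159 and 149. Replication-dependent histone mRNAs, which also lack a poly(A) tail, were low in DMSO, with a highest value of 6.74 RPKM among 111 genes. These genes are repeated copies, and how reads shared by copies were counted is not stated, so their levels are uncertain. None of the 24 measured was called at 15 or 30 min. At 60 min 16 were called lower, where 12.6% of all measured genes were. Their median log2 fold there was -1.13, and -0.30 with the relation to exon length removed.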

How the data were processed

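The deposited files hold raw counts per gene ID, 1 file per library. Per the submitters' processing notes the authors used Bowtie, HTSeq and the dm3 build; no tool version, no annotation release and no strand option is named in the labels. The entry for reads aligned at several places was 0 in every file. In DMSO 14.7% of aligned reads matched no gene and 1.38% were ambiguous, and these entries were left out of library sizes.

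CPM of DMSO were counts over its total gene counts. Radicicol libraries were scaled with TMM factors (edgeR 4.0.16 in R 4.3.3) relative to DMSO. RPKM used the union of exons in Ensembl release 115, a later build than dm3, so no coordinates are printed. Symbols came from the gene name table (13524 IDs) and RefSeq synonyms (8 IDs). Of 555 listed symbols, 61 had no ID and are not analysed here. Detection needed at least 10 counts, silence was below 1 RPKM, and intervals were exact 95% Clopper-Pearson. With 1 library per condition no p-value was computed, and whether cultures were separate is not stated.

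Members, gene lists and the rule for named genes were chosen with earlier results of these data known. The counts by copy suffix, exon overlap, chromosome of the genes lower in all 3 libraries, nuclear ribosomal RNA and calls among the exceptions were added after the values were seen. By that rule the 30 genes highest by counts or RPKM, members of the lists, and called genes among the 100 most abundant were named. Outside it, high protein-coding genes such as Rack1 and CtsL1 and some genes lower in all 3 libraries were named after their values were seen. Other scalings (RLE from DESeq2 1.42.0, total counts), filters and thresholds were tried. No sequence is printed, since no genome or promoter table was at hand.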

Additional observations from a re-analysis of the deposited data

How the results depend on the processing

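The genes that hold 50% of the total numbered 68 by RPKM, against 146 by counts. The ribosomal protein share was 47.5% of RPKM, 26.5% without the 10 most abundant genes and 24.4% of all aligned reads. The basal chaperone share was 1.81% of RPKM and 2.46% without the 10 most abundant genes. The haemocyte share was 1.56% of RPKM, 2.70% without those 10 genes and 0.841% for the core markers. Genes called in any radicicol library numbered 2566 by the main rule, 1024 after the trend of fold with exon length was taken out and 393 without the 60 min library, and between 2418 and 3175 under the other scalings, filters and libraries left out. The ratio of X-linked to autosomal medians was 0.855 with genes of at least 1 count. Detected genes, tissue markers below 1 RPKM (94 to 122) and the remaining settings kept within 1.5 times the main value. With total counts as library size the median log2 fold at 15 min was 0.15, and 192 genes were higher and 87 lower, against 110 and 97. No paired analysis was possible because each condition had 1 library. The planned share of promoters with a TCT initiator was not run, since no promoter sequence was at hand. Counts of a few reads, as for lz or Egfr, limit the statements on the lowest genes. The cause of these shifts was not tested.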
